A study of Mus musculus with 6 samples.

Results

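Contacts of 36 developmental transcription factor genes that are known Polycomb targets in embryonic stem cells were followed in Hi-C maps of mouse embryonic stem cells. The genes belong to the PAX, NKX, LIM homeobox, sine oculis (Six2, Six3 and Six6), DLX, GBX, EN, EMX, MEIS, TLX, BARHL and TBX families. They were taken from a fixed list of names, chosen with earlier results of these data known but not by a value in these maps. They are 36 of 20665 autosomal protein-coding genes, lie on 10 chromosomes, and each was placed in the 50 kb bin that holds its start (mm10). Dlx1 and Dlx2 share a bin, as do Dlx5 and Dlx6, so the genes fill 34 bins. For 26 of the 36 genes the bin holds no other protein-coding gene start. The Meis2 bin was left out because WT replicates 1 and 2 had lost coverage there (0.28 of a well-covered bin in each, against 0.82 to 0.86 in the other libraries), which left 33 usable bins with 35 genes.

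In-situ Hi-C joins DNA ends that lie close together in fixed nuclei and counts the joined pairs as contacts. The study compared 3 libraries labelled wild type (WT) with 3 labelled GFP-CTCF-Del8 (Del8), all from embryonic stem cells of strain 129. In Del8 the CTCF protein lacks zinc finger 8, and the design text describes the comparison line as expressing GFP-CTCF, so whether the WT libraries carry the tag is not settled by the labels. The labels do not say how many clones stand behind a line. The replicates are called biological in the design text, and p-values measure the spread between these libraries. The libraries held 24038030 to 66266759 contacts, all within chromosomes, with a median of 1295 to 2898 contacts per usable bin. WT replicates 1 and 2 had lost contacts in many bins, so 27783 of 47875 autosomal bins were used. Hi-C measures no expression, so neither the cell type nor the silence of these genes could be checked against marker genes.

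Polycomb proteins work in complexes. Polycomb repressive complex PRC2, with the subunits Ezh2, Eed and Suz12, methylates a lysine of histone H3, and PRC1, with Ring1 or Rnf2, ubiquitinates histone H2A and can compact chromatin. In embryonic stem cells both sit on the CpG-rich promoters of genes that direct later development and keep them silent but inducible, and Polycomb-bound genes are known to touch each other over long distances. CTCF binds DNA through its zinc fingers and stops cohesin there, which sets many domain borders.

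The genes' promoters differ in sequence. Promoter windows from RefSeq (GRCm38.p6, 250 bases before to 50 after the start, 300 in all) were at hand for 29 of the 36 genes. Their median CpG content was 17 CpG per window, from 4 (Lhx8) to 42 (Barhl2), against a median of 7 in all 27025 windows. The ratio of observed to expected CpG reached 0.6 in 17 of the 29 (58.6%) and in 36.5% of all windows. The 250 bases before the start are shown for the genes with the deepest falls of insulation score described next, Pax2 and Lhx4, and for the gene with the highest rise, Nkx6-1. They are written 5′ to 3′ on the gene's strand with CpG in capitals. They lie at chr19:44746351-44746600 (plus strand, 5 CpG), chr1:155742028-155742277 (minus strand, 14 CpG) and chr5:101664712-101664961 (minus strand, 30 CpG).
Pax2: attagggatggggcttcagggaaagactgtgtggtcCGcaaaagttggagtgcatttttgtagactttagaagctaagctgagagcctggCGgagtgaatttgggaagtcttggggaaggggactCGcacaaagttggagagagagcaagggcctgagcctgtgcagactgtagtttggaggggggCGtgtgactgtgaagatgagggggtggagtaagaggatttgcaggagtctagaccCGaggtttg
Lhx4: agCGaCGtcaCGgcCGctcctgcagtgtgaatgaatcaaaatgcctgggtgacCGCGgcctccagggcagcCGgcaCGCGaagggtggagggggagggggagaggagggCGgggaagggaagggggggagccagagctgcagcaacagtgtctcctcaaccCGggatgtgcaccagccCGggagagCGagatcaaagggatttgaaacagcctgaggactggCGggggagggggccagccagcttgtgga
Nkx6-1: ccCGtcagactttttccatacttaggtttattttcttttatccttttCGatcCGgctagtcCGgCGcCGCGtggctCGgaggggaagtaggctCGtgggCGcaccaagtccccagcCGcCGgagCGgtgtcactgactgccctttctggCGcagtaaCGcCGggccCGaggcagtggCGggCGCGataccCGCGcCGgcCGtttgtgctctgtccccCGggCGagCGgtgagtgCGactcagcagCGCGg

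The first comparison asked whether contact across these genes' bins differed between the lines. The insulation score of a bin compares contacts that span the bin, between the 500 kb before and the 500 kb after it on the balanced map, with the average for that chromosome, on a log2 scale. A low score marks a place that few contacts cross, such as a domain border. Of the 34 bins, 30 (31 genes) could be scored. The bins of Dlx5 and Dlx6, Pax9 and Lhx9 had too few usable neighbours. Between Del8 and WT the score rose at 3 bins (Nkx6-1, Tbx5 and Lhx5), fell at 10 (Pax2, Lhx4, Nkx2-5, En2, Pax8, Barhl1, Lhx6, Lhx3, Tlx1 and Six6) and did not pass the test at 17 (limma, Benjamini-Hochberg adjusted p under 0.05 over 21982 bins). Over all scored bins the score rose at 32.5% and fell at 30.7%, 63.2% in all, so a call at a single bin is common on these maps. The median difference over the 30 bins was -0.037, against 0.001 over all scored bins, and the median size of the difference was 0.079 against 0.111. The groups did not overlap at 18 of the 30 bins (5 higher and 13 lower in Del8), against 67.2% of all scored bins (34.2% higher and 33% lower). When every bin with 20 or more contacts per library was kept, no bin of the genome passed (limma), and of the 34 bins of these genes 1 was higher and 2 were lower at an unadjusted p under 0.05. The share of all bins at that unadjusted limit is not given here. All calls given here rest on the stricter screen.

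**Figure D1:**
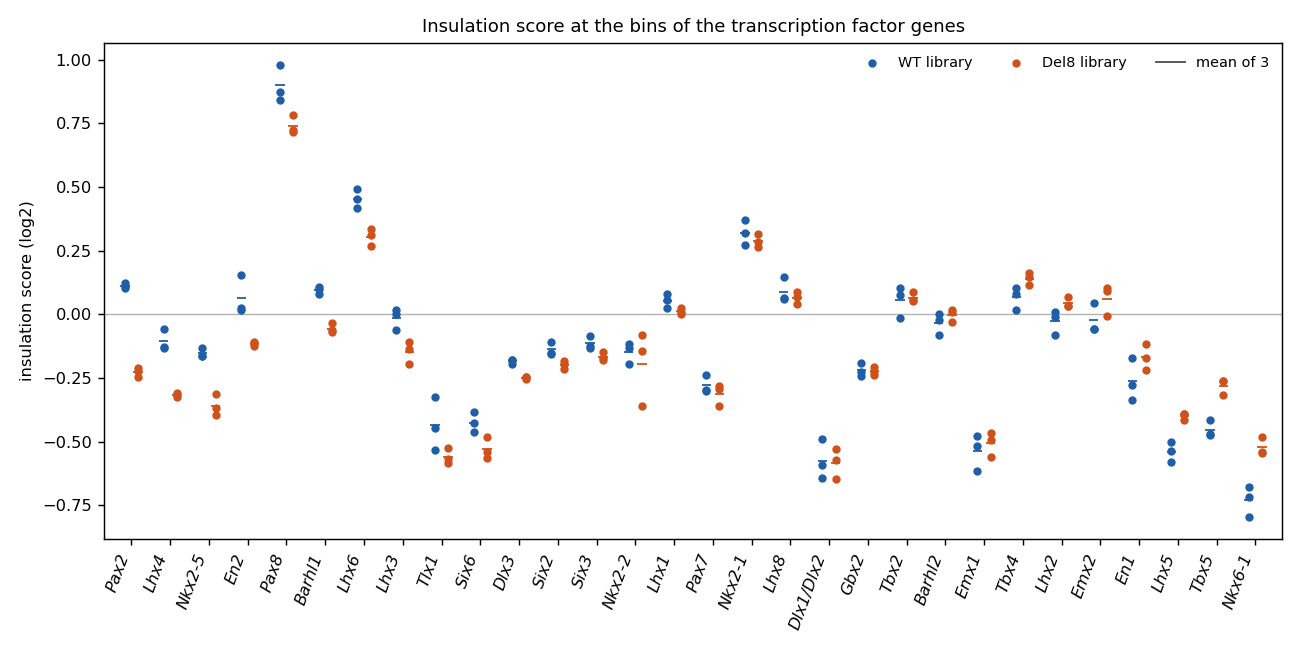
Insulation score (log2, y axis) at the 30 scored bins of the transcription factor genes, ordered by the difference between Del8 and WT. Each point is 1 library and each bar the mean of 3. Pax2, at the left end, fell by 0.34 and Nkx6-1, at the right end, rose by 0.21.

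The bins differed more from each other than between the lines. Scores ran from near the lowest of the genome at Nkx6-1 (6.1% of scored bins were lower) to nearly the highest at Pax8 (99.2% were lower), with a median of 37.5%. The score lay below the median of all bins at 18 and above it at 12. Nkx6-1 and Six2 lay in a called boundary bin, 2 of 30, and 7 of 30 lay within 50 kb of one. Boundaries made up 4.67% of all scored bins, and 14.0% lay within 50 kb of one.

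Among the PAX genes, which pattern the kidney, thyroid, thymus and muscle, 2 of 3 scored bins fell and none rose. Pax2, needed for kidney and for the border of midbrain and hindbrain, had the deepest fall. Its bin (chr19:44700001-44750000) scored 0.12, 0.10 and 0.11 in the WT libraries, in order of replicate, against -0.21, -0.22 and -0.25 in the Del8 libraries. All 3 Del8 libraries lay below all 3 WT libraries. The means were 0.11 ± 0.010 and -0.23 ± 0.020 (SD, n = 3 each). The score thus fell by 0.34 (limma, SE 0.027, adjusted p = 1.77e-06), to 0.791 of the WT contact across the bin. Pax8, a regulator of thyroid genes, scored 0.98, 0.87 and 0.84 in WT, against 0.72, 0.78 and 0.72 in Del8 without overlap, and fell by 0.16 (limma, SE 0.037, adjusted p = 0.00299). Its bin is among the least insulated of the genome, and the call ended with a 250 kb square (-0.078, adjusted p = 0.231). Pax7, which marks muscle stem cells, differed by -0.034 and overlapped between the groups.

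The fall at Pax2 belonged to a wider change of the profile. In WT the score was high around Pax2, with a low point 600 kb before it (-0.53, -0.42 and -0.45 in WT replicates 1 to 3) and a lesser dip 250 kb before it (-0.32, -0.29 and -0.24). In Del8 the bin 600 kb before Pax2 was no low point (-0.08, -0.10 and -0.15). The Del8 score climbed through it, from -0.12, -0.18 and -0.21 at 650 kb before Pax2 to 0.014, 0.0016 and -0.026 at 550 kb before. The Del8 score descended through Pax2 to a low point 300 kb beyond it (-0.69, -0.64 and -0.69, against -0.32, -0.30 and -0.28 in WT at that bin). WT dipped beyond Pax2 as well, a little further on. Its lowest values there were -0.53 and -0.45 at 450 kb in WT replicates 1 and 2, and -0.33 at 350 kb in WT replicate 3. The groups did not overlap at the bins 600 kb before and 300 kb beyond Pax2. These points were picked after their values were seen. The Del8 low point beyond Pax2 lies 150 kb before the bin of Tlx1, a gene needed for the spleen to form. The Tlx1 bin scored -0.53, -0.45 and -0.32 in WT, against -0.57, -0.58 and -0.53 in Del8. It passed the test (difference -0.12, limma, SE 0.045, adjusted p = 0.031), although WT replicate 1 lay within the Del8 range. The call at Tlx1 ended without WT replicate 2 (-0.13, adjusted p = 0.0513), WT replicate 3 (-0.068, 0.111), Del8 replicate 1 (-0.12, 0.0771) or Del8 replicate 2 (-0.11, 0.0971). With a 250 kb square the difference turned to 0.068 and did not pass.

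**Figure D2:**
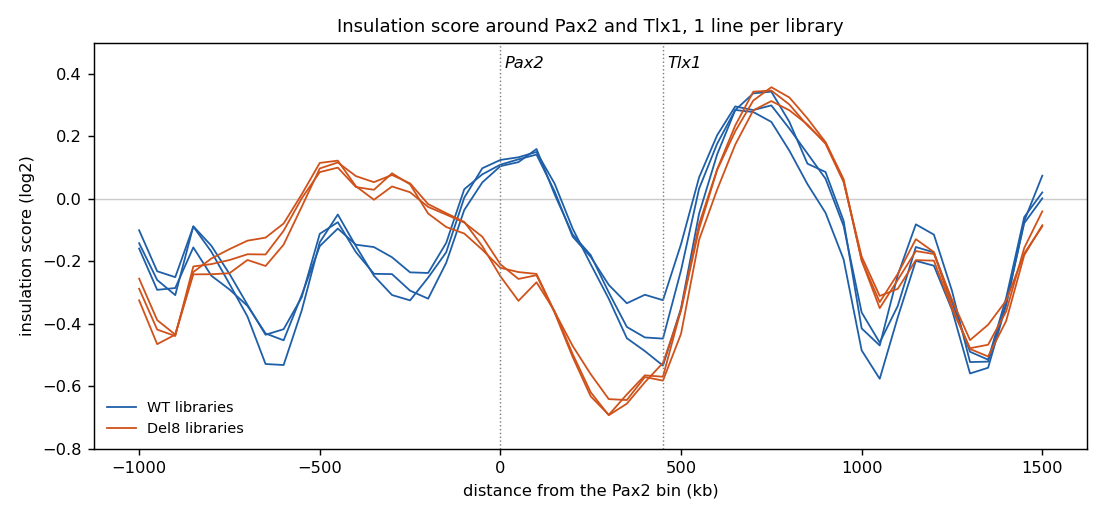
Insulation score (log2, y axis) against distance from the Pax2 bin in kb (x axis), 1 line per library. Dotted lines mark the bins of Pax2 and Tlx1. The WT libraries dip 600 kb and again 250 kb before Pax2 and are high at Pax2, where the Del8 libraries are on the way down to between -0.64 and -0.69 at 300 kb beyond it. The WT libraries dip once more 350 to 450 kb beyond Pax2, to lowest values between -0.53 and -0.33.

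Of the 4 NKX bins, 1 fell, 1 rose and 2 did not pass. Nkx2-5, an early regulator of the heart, scored -0.16, -0.13 and -0.16 in WT, against -0.37, -0.31 and -0.39 in Del8 (chr17:26800001-26850000). The groups did not overlap and the difference was -0.21 (limma, SE 0.030, adjusted p = 0.000121). Nkx6-1, which acts in pancreatic beta cells and motor neuron progenitors, went the other way. It lies in a boundary bin (chr5:101650001-101700000) that scored -0.68, -0.79 and -0.72 in WT, against -0.54, -0.48 and -0.55 in Del8, higher in every Del8 library. The means were -0.73 ± 0.060 and -0.52 ± 0.036 (SD, n = 3 each), a rise of 0.21 (limma, SE 0.035, adjusted p = 0.000342), or 1.15-fold contact across the boundary. With a 1 Mb square the rise was 0.033 and did not pass. Nkx2-1, of thyroid, lung and forebrain, and Nkx2-2, of the ventral neural tube and pancreas, overlapped between the groups and differed by -0.031 and -0.046.

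Among 7 scored bins of LIM homeobox genes, 3 fell, 1 rose and 3 did not pass. Lhx4, which acts with Lhx3 in the pituitary and in motor neurons, scored -0.057, -0.13 and -0.13 in WT, against -0.31, -0.33 and -0.32 in Del8 (chr1:155700001-155750000). The groups did not overlap, and the difference was -0.21 (limma, SE 0.030, adjusted p = 9.27e-05). With a 1 Mb square it was -0.022 and did not pass. Lhx3 itself fell by 0.13 (limma, adjusted p = 0.00404), but with a 250 kb square its difference was 0.0040 and did not pass. Lhx6, a gene of forebrain interneurons, fell by 0.15 (limma, adjusted p = 0.0013). Lhx5, of the developing forebrain, scored -0.50, -0.58 and -0.54 in WT, against -0.39, -0.39 and -0.41 in Del8 (chr5:120400001-120450000). It rose by 0.14 without overlap (limma, SE 0.029, adjusted p = 0.00143), but with a 1 Mb square the difference was -0.019, and on unbalanced contacts it was 0.082, and neither passed. Lhx1, Lhx2 and Lhx8 differed by -0.041, 0.072 and -0.024.

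Tbx5, a gene of the forelimb and heart that lies 650 kb from Lhx5, was the third bin with a rise. It scored -0.47, -0.47 and -0.42 in WT, against -0.26, -0.26 and -0.32 in Del8 (chr5:119750001-119800000). Every Del8 library was higher, by 0.17 in the mean (limma, SE 0.030, adjusted p = 0.000425). At the other end of the gene the difference was 0.010, and with a 1 Mb square and on unbalanced contacts it was 0.049 and 0.095, and none of these passed. Tbx2 and Tbx4 differed by 0.0088 and 0.072 and did not pass. On unbalanced contacts both rose (0.46 and 0.58, limma, adjusted p = 1.20e-06 and 2.81e-07), and with a 1 Mb square both fell (-0.069 and -0.064, limma, adjusted p = 0.0171 and 0.0206). Hi-C coverage of both bins was higher in every Del8 library than in every WT library. En2, of midbrain and cerebellum, scored 0.16, 0.024 and 0.016 in WT, against -0.11, -0.11 and -0.12 in Del8 (chr5:28150001-28200000). It fell by 0.18 without overlap (limma, SE 0.037, adjusted p = 0.0013), and by 0.033 with a 250 kb square, which did not pass. Barhl1, of the inner ear and cerebellum, scored 0.08, 0.11 and 0.10 in WT, against -0.063, -0.071 and -0.035 in Del8 (chr2:28900001-28950000), also without overlap. It fell by 0.15 (limma, SE 0.027, adjusted p = 0.000482), but on unbalanced contacts the difference was -0.022 and did not pass.

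The other families gave few calls. Of Six2, Six3 and Six6, which act in the eye and kidney, the last fell by 0.10 (limma, adjusted p = 0.0144). This call turned to a rise of 0.16 with a 1 Mb square (limma, adjusted p = 0.000239) and ended on unbalanced contacts (-0.038, adjusted p = 0.462) and without Del8 replicate 3 (-0.086, adjusted p = 0.0650). Six2 and Six3 differed by -0.060 and -0.052 and did not pass. Neither scored DLX bin passed: the bin of Dlx1 and Dlx2, genes of forebrain interneurons, differed by -0.0070 and that of Dlx3, a gene of skin and teeth, by -0.064. Among the GBX, EN and EMX genes, which divide the early brain into regions, En2 was the 1 call in 5 bins, and the others ranged from -0.0034 (Gbx2) to 0.093 (En1). Barhl2, a gene of the retina, differed by 0.031.

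The second comparison took the share of a bin's contacts along its chromosome that reached no further than 1 Mb, leaving out contacts within the bin. In the 33 bins this share had a median of 66.8% for WT and 68.5% for Del8, against 65.0% and 66.9% over all usable bins. It was lowest at Dlx5 and Dlx6 (47.9% in Del8) and highest at Tlx1 (79.6% in WT). One bin passed the test, that of Lhx5, and none of the 33 fell (edgeR quasi-likelihood test, Benjamini-Hochberg adjusted p under 0.05 over 27756 bins). Over all bins 4.46% passed, of which nearly all rose (4.45% against 0.0144% that fell). At an unadjusted p under 0.05, 4 rose (the bins of Lhx5, Dlx1 and Dlx2, Tbx5 and Pax7) and none fell. The share of all bins at this unadjusted limit is not given here, so these counts are no result about the listed genes. Over all usable bins 78.5% had the higher share in Del8. With DESeq2, which scaled the counts by library and not by the bin's own contacts, 2 bins rose, those of Tbx2 and Tbx4 (log2 change 0.61 in each), and none fell, against 1.4% and 0.803% of all bins. At Lhx5 the share was 63.6%, 65.9% and 59.7% in WT, against 69.7%, 66.1% and 69.6% in Del8. The groups did not overlap but nearly met (65.9% in the highest WT library, 66.1% in the lowest Del8 library). The log2 change was 0.13 (edgeR, SE 0.041, adjusted p = 0.048). The call ended without WT replicate 3 (0.08, adjusted p = 0.385) and without any single Del8 library (0.11 to 0.15, adjusted p of 0.0966 to 0.594), and with the replicate number as a block (0.12, adjusted p = 0.310), with a limit of 500 kb, with contacts inside the bin counted, with library scaling and with the looser screen. It held without WT replicates 1 and 2 (0.20, adjusted p = 5.80e-05) and with a minimum mean count of 200 (0.13, adjusted p = 0.0477).

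The order of the libraries was alike at most of these bins. WT replicate 3 had the lowest share of the WT libraries at 29 of 33 bins and the lowest of all 6 at 25, against 94.2% and 86.2% of all usable bins. Del8 had the higher share at 23 of the 33 bins, against 78.5% of all usable bins. Without WT replicates 1 and 2, 12 of the 33 bins rose, against 40.4% of all bins. The groups did not overlap at 5 of the 33 bins, against 21.7% of all bins: Lhx5, Pax7, Gbx2 and Barhl1 were higher and Tlx1 lower in Del8. Tlx1 held 81.0%, 80.1% and 77.8% in WT, against 76.9%, 75.5% and 76.7% in Del8, a log2 change of -0.056 that did not pass (edgeR, SE 0.042, adjusted p = 0.484).

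**Figure D3:**
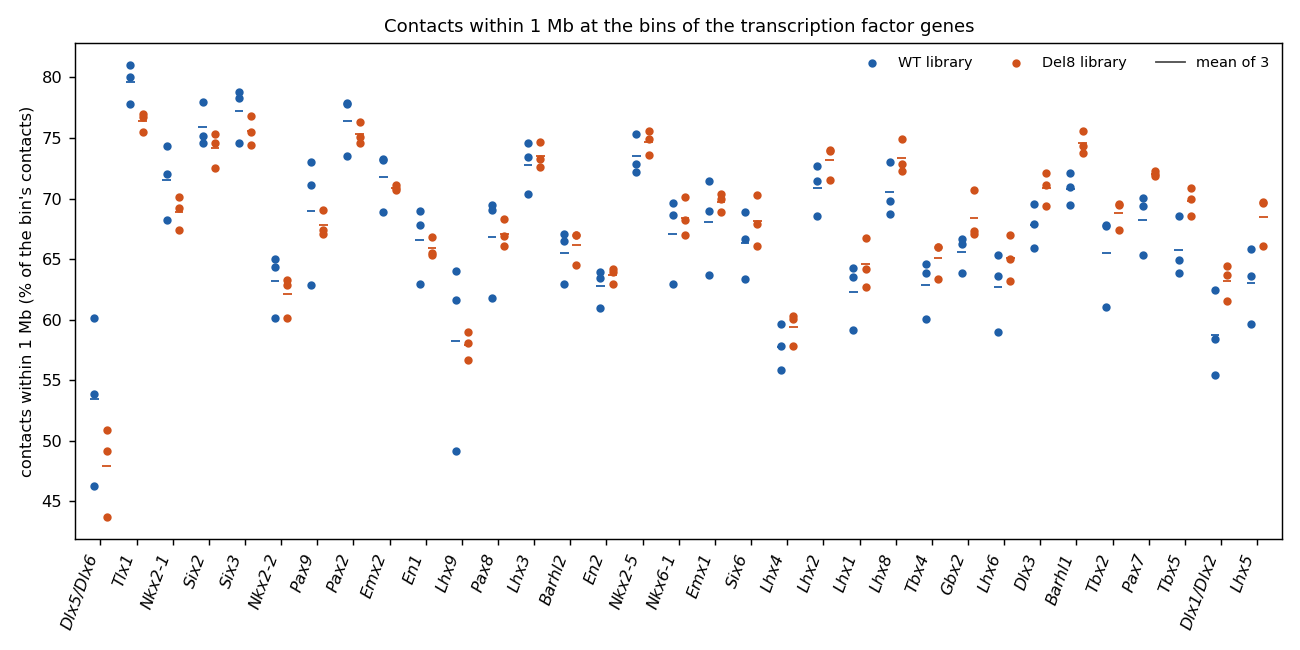
Share of a bin's contacts that reach no further than 1 Mb (%, y axis, not starting at 0) at the 33 usable bins, ordered by the log2 change. Points are libraries and bars means of 3. The bins spread from 47.9% at Dlx5 and Dlx6 in Del8 to 79.6% at Tlx1 in WT, and Lhx5, at the right end, is the 1 bin of the 33 whose change passed the test.

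The third comparison took contacts of these genes with each other, against other pairs of bins equally far apart on that chromosome. The expected count of a pair came from its chromosome, its distance and the balancing factors of both bins in that library. The 33 bins form 53 pairs on the same chromosome, of which 2 are neighbours, 6 lie 100 kb to 2 Mb apart and 45 lie further apart. Of the 6 pairs, 5 had more contacts than expected over the 6 libraries together, and none of the 5 that had enough contacts for the test differed between the lines (edgeR quasi-likelihood test, 0 of 5 at adjusted p under 0.05, 1 at unadjusted p under 0.05, 0 with DESeq2). Over all 312830 pairs tested, 0.82% rose and 0.817% fell at adjusted p under 0.05. The share of all pairs at the unadjusted limit is not given here. In simulated data 39% of pairs with a log2 change of 1 passed, so a change at a pair can be missed.

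Tbx5 and Lhx5, 650 kb apart, met 20, 25 and 30 times in WT, against 63, 45 and 32 times in Del8, which is 1.76, 1.88 and 1.57 times the expected count in WT, against 1.94, 1.92 and 1.59 times in Del8. The groups overlapped, and 215 contacts in all gave 1.80 times the expected (95% exact Poisson interval 1.56 to 2.05, for counting error only). Of 1509 other pairs at that distance on chromosome 5, 5.63% reached as high a value. Nkx2-1 and Pax9, genes of the foregut and the pharyngeal pouches, are 150 kb apart and had 1.63 times the expected contact (interval 1.49 to 1.80), a level that 6.14% of 1009 other pairs reached. For Pax2 and Tlx1, Lhx1 and Tbx2, Lhx1 and Tbx4, and Pax8 and Lhx3, described next, that share was 13.8%, 16.3%, 9.57% and 76.4%. By library the ratio of Nkx2-1 and Pax9 was 1.43, 1.82 and 1.32 in WT, against 1.86, 1.58 and 1.66 in Del8, with overlap.

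Pax2 and Tlx1 were the pair with an unadjusted p under 0.05. They met 37, 41 and 38 times in WT, or 2.09, 1.94 and 1.43 times the expected count, and 60, 39 and 42 times in Del8, or 1.22, 1.16 and 1.40 times. Every Del8 ratio lay below every WT ratio. The log2 change of -0.51 did not pass over all pairs (edgeR, SE 0.21, unadjusted p = 0.015, adjusted p = 0.206). WT replicate 3 lay next to Del8 replicate 3, and without WT replicates 1 and 2 the change was -0.20. The boundary between the genes is the one that was deeper in Del8 on the insulation profile.

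Lhx1, a gene of the head organizer and kidney, met Tbx2 at 1300 kb 1.52 times the expected count (interval 1.20 to 1.90) and Tbx4, a gene of hindlimb and lung, at 1350 kb 1.83 times (interval 1.42 to 2.32). With Tbx2 the ratio was 1.27, 2.21 and 2.15 in WT, against 1.38, 1.06 and 1.60 in Del8, on 5 to 21 contacts per library, and the log2 change was -0.53 (edgeR, SE 0.40, adjusted p = 0.583). With Tbx4 it was 1.65, 3.14 and 1.52 in WT, against 1.84, 1.77 and 1.49 in Del8, a log2 change of -0.27 (edgeR, SE 0.43, adjusted p = 0.840). Both overlapped. Tbx2 and Tbx4 lie in neighbouring bins and are not independent here. Pax8 and Lhx3, 1750 kb apart, had 13 contacts in all, 0.548 times the expected (interval 0.292 to 0.937), too few for the test. Its counts were 2, 0 and 1 in WT, against 3, 3 and 4 in Del8. The neighbouring bins of Six3 and Six2 had 1.04 times the expected contact (0.90, 0.89 and 1.08 in WT, 1.14, 1.08 and 1.07 in Del8), and those of Tbx2 and Tbx4 0.745 times (0.83, 0.83 and 0.70 in WT, 0.75, 0.71 and 0.72 in Del8). Against chromosome and distance alone, without the balancing factors, the Tbx2 and Tbx4 bins had 1.14, 1.29 and 1.07 times the expected contact in WT, against 1.98, 1.87 and 1.86 times in Del8, so both the side of 1 and the order of the groups turned.

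**Figure D4:**
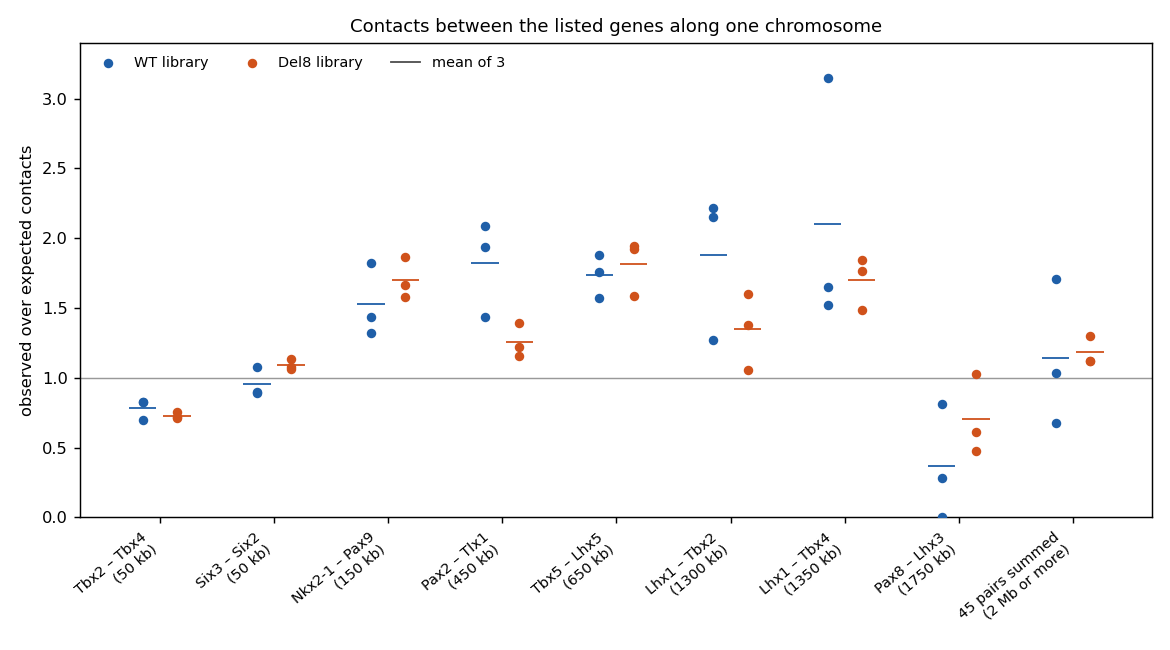
Observed over expected contacts (y axis) for the 8 pairs of listed genes up to 2 Mb apart, in order of distance, and for the 45 pairs further apart summed. Points are libraries, bars means of 3, and the line at 1 is the expected contact. Of the pairs from 150 kb to 1350 kb, all lie above 1 in every library.

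The 45 pairs beyond 2 Mb held few contacts, with a median of 2 per pair over the 6 libraries and none at all in 10 pairs. Summed, they held 24, 16 and 15 contacts in WT, against 35, 26 and 24 in Del8, which is 1.71, 1.04 and 0.678 times the expected count in WT, against 1.12, 1.12 and 1.30 times in Del8. The Del8 libraries lay within the WT range. The means were 1.14 ± 0.52 and 1.18 ± 0.10 (SD, n = 3 each). Over all libraries 140 contacts gave 1.13 times the expected (95% exact Poisson interval 0.947 to 1.33, for counting error only), and the pixels 50 to 100 kb around gave 1.00 (0.963 to 1.04), and those 150 to 250 kb around gave 0.912 (0.892 to 0.931). By library the pixels 50 to 100 kb around gave 1.05, 1.09 and 1.02 in WT, against 0.99, 0.91 and 0.98 in Del8, without overlap. Those 150 to 250 kb around overlapped. This difference was not tested. With an expected count from chromosome and distance alone the ratio was 1.66, and with one from pairs of gene-start bins 1.07. By distance the ratio was 1.19 at 2 to 10 Mb (interval 0.932 to 1.49), 0.924 at 10 to 30 Mb (0.651 to 1.27) and 1.31 beyond 30 Mb (0.884 to 1.87). Chromosome 2, with 7 of the bins and 20 of the pairs, gave 1.30 (1.04 to 1.60) and the other chromosomes 0.924 (0.692 to 1.21). Of these intervals by distance and by chromosome, all but that of chromosome 2 include 1.

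As blocks of 250 kb, 28 of these pairs had enough contacts for a test between the lines. They are not all separate tests. Tbx2 and Tbx4 share a block, as do Nkx2-1 and Pax9, so their pairs with Dlx3 and with Six6 repeat the same result. None passed (edgeR quasi-likelihood test, 0 of 28 at adjusted p under 0.05, 2 at unadjusted p under 0.05), against 0.0426% of all 328945 block pairs (0.0134% that rose and 0.0292% that fell). The 2 were Lhx3 with Barhl1 and Nkx6-1 with Lhx5, and the share of all block pairs at the unadjusted limit is not given here. In simulated data 9.5% of block pairs with a log2 change of 1 passed, so most such changes were missed there. The counts behind a single pair were low. Of the 5 pairs with an expected count of 5 or more, Lhx6 and Lhx2, 2.20 Mb apart, had the highest ratio, 2.30 (interval 1.50 to 3.37). They met 4, 0 and 1 times in WT, against 9, 5 and 7 times in Del8. The ratio was 3.41, 0 and 0.571 in WT, against 2.95, 2.31 and 3.66 in Del8, with overlap, and at 250 kb the log2 change was -0.30 (edgeR, SE 0.16, adjusted p = 0.750). Lhx3 and Barhl1, 2.70 Mb apart, met 1, 4 and 2 times in WT, against 5, 6 and 2 times in Del8, or 1.26 times the expected contact in all (0.767 to 1.94). The mean ratio was 1.15 in WT and 1.32 in Del8. At 250 kb the direction was the other, with a log2 change of -0.48 (edgeR, SE 0.17, unadjusted p = 0.00615, adjusted p = 0.498). Tbx2 and Dlx3 met 0, 2 and 1 times in WT, against 0, 0 and 1 times in Del8, or 0.682 times the expected (0.186 to 1.75). Nkx6-1 and Barhl2 met 1, 1 and 0 times in WT, against 0, 0 and 1 times in Del8, or 0.556 times the expected (0.115 to 1.63). Counts of these pairs overlapped between the groups. Pax8 and Barhl1, 4.45 Mb apart, had 0 contacts of 6.50 expected, which allows up to 0.567 times (upper bound of the same interval).

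Contacts of these genes with any bin from 100 kb to 2 Mb away gave 962 pairs in the test, of which 6 rose and 13 fell (1.98%, against 1.64% of all pairs, so near the background). The pairs described here were picked after their values were seen. Nkx6-1 was in contact with a bin 750 kb before it that holds no protein-coding gene start (chr5:100900001-100950000). That pair held 40, 57 and 51 contacts in WT, or 4.40, 6.46 and 4.44 times the expected count, and 40, 42 and 34 in Del8, or 1.85, 2.70 and 2.75 times. All Del8 ratios were lower, and the log2 change was -1.09 (edgeR, SE 0.21, adjusted p = 0.000381). The next bin, 700 kb away, gave -1.06 (edgeR, adjusted p = 0.0159). Emx2, a gene of the cerebral cortex, met a bin 650 kb beyond it (chr19:60100001-60150000) 3.72, 4.77 and 2.88 times the expected count in WT, against 1.86, 1.71 and 2.47 times in Del8, a log2 change of -0.91 (edgeR, SE 0.22, adjusted p = 0.0105). Lhx5 gained contact with the bin 150 kb beyond it in which Iqcd starts (chr5:120550001-120600000), from 0.40, 0.43 and 0.57 times the expected in WT to 0.96, 0.81 and 0.92 times in Del8 (log2 change 0.92, edgeR, SE 0.18, adjusted p = 0.000853). Gbx2, a gene of the hindbrain, gained contact 250 kb away, where Iqca starts, from 0.36, 0.33 and 0.37 times to 0.64, 0.67 and 0.73 times the expected (log2 change 0.93, edgeR, SE 0.27, adjusted p = 0.0444).

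Tbx2 and Tbx4 lay in a stretch with raised Hi-C coverage in Del8. Scaled to well-covered bins, the coverage of the Tbx2 bin was 1.56, 1.67 and 1.72 in WT, against 2.72, 2.71 and 2.69 in Del8, and that of the Tbx4 bin was 1.24, 1.38 and 1.39 in WT, against 2.10, 2.10 and 2.08 in Del8. The stretch covers chr11:85650001-86350000 with the starts of Brip1, Ints2, Tbx2 and Tbx4. Over its 13 usable bins coverage was 1.08, 1.09 and 1.16 in WT, against 1.73, 1.73 and 1.76 in Del8, a ratio of 1.57, against 1.07 in the flanks. All Del8 libraries reached 1.3 times every WT library in 28 of 27783 usable bins (0.101%), and these form 3 stretches, on chromosomes 4, 10 and 11. Tbx2 and Tbx4 are the listed genes in them. The limit of 1.3 was set after the values were seen, and no test was made.

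Contacts inside this stretch were higher in Del8 as well. Relative to chromosome and distance alone, contact of the Tbx2 bin was taken with 10 other bins of the stretch, not all of them. It was 1.15, 1.25 and 1.18 times the expected in WT, against 2.20, 2.11 and 2.32 times in Del8. Between the first 3 and last 3 bins it was 0.549, 0.418 and 0.603 times the expected in WT, against 2.01, 2.09 and 1.85 times in Del8, a ratio of 3.79 between the means. Contacts of Tbx2 with the 500 kb before the stretch did not share this, at 1.69, 1.77 and 1.65 in WT, against 1.62, 1.74 and 1.52 in Del8, nor did those with the 500 kb after it (1.03, 0.84 and 0.94 in WT, 0.90, 0.91 and 0.90 in Del8). Between the 500 kb on either side it was 0.934, 0.943 and 0.730 times the expected in WT, against 0.624, 0.653 and 0.613 times in Del8. Of the 3 pairs of Tbx2 called in the fit of single pairs, both rises, 450 and 500 kb beyond the gene, join it to the end of this stretch. The cause of the raised coverage, and its part in the contacts of Tbx2 and Tbx4 given above, was not tested.

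**Figure D5:**
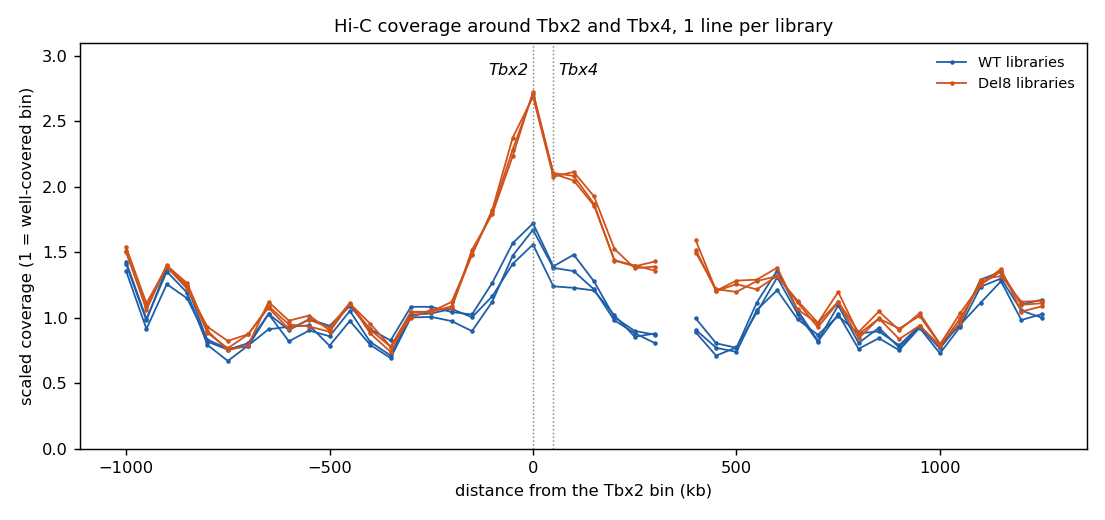
Hi-C coverage scaled to well-covered bins (y axis) against distance from the Tbx2 bin in kb (x axis), 1 line per library, with a gap at a bin left out. The Del8 lines stand well above the WT lines from 150 kb before Tbx2 to 500 kb beyond it, at 2.69 to 2.72 against 1.56 to 1.72 at Tbx2. Outside they run closer to the WT lines, mostly a little above them (ratio 1.18 at 550 kb beyond Tbx2 and 1.07 in the flanks).

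Other genes of the pathway were read from the same fits. Of 25 scored bins of 38 other Polycomb target genes of the same kind, 9 rose and 7 fell, with a median difference of 0.023. Lmx1a, a gene of dopamine neurons and the inner ear, rose by 0.30 and Hand2, a gene of heart and limb, by 0.26, while Nkx6-2, of the neural tube, fell by 0.27 (limma, adjusted p = 0.000192, 7.68e-06 and 6.73e-05). In contacts within 1 Mb, the Hand2 bin rose as well (log2 change 0.14, edgeR, adjusted p = 0.0359). Of 27 scored bins of 31 Polycomb subunit genes, 6 rose and 6 fell. The PRC2 gene Suz12 rose by 0.23 and the gene of its enzyme, Ezh2, fell by 0.20 (limma, adjusted p = 0.000906 and 0.00236). No subunit bin of 29 passed for contacts within 1 Mb. The background for these counts is 32.5% of bins that rose and 30.7% that fell in insulation. For contacts within 1 Mb it is 4.45% that rose and 0.0144% that fell, so 0 of 29 is no result about the subunit genes.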

How the data were processed

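The authors deposited raw contact counts of 50 kb bin pairs within chromosomes, 1 table per library. Coordinates follow mm10, named in the submitters' processing notes. Aligner and read filters: not given in the sources used here. Bins entered the analysis where each library kept 0.5 or more of the coverage in the third highest library, after scaling, and exceeded 0.1 of its own scale. This limit was chosen with the values known. Maps were balanced per chromosome without the diagonal. A score needed 50% of its square usable, and boundaries were minima with a prominence of 0.2 on the summed map. Starts came from RefSeq tables (GRCm38.p6). For Tbx2, Tbx5, Dlx3, Dlx5, Dlx6, En2 and Lhx5 the lower coordinate was used.

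Insulation scores were tested with limma 3.58.1 and counts with edgeR 4.0.16 (quasi-likelihood) in R 4.3.3, with DESeq2 1.42.0 as an alternative, over all bins or pairs with Benjamini-Hochberg adjustment, 3 WT against 3 Del8 libraries without a replicate block. Offsets were the log of the bin's own contacts for shares and the log expected count for pairs. Pairs were tested at a mean count of 10 or more (50 kb pairs under 2 Mb) or 5 or more (250 kb blocks beyond). The fits were tested on simulated data with 200 changed features each. Of these, 65% passed for insulation (log2 change 0.2) and 81% for contacts within 1 Mb (0.3). With a log2 change of 1, 39% passed for pairs under 2 Mb and 9.5% for block pairs beyond. Of all that passed, 5.80%, 2.99%, 3.70% and 9.52% were unchanged features, in the same order. The spread of the simulated counts was a set value, not one estimated from these libraries. For insulation 200 of 21982 bins were changed, whereas 63.2% were called in the data. The shares recovered may therefore differ in the real fits. All members are accounted for, and library values are given for the 6 deepest falls, all 3 rises, all pairs up to 2 Mb and the 5 far pairs with an expected count of 5 or more. Members, lists and this rule were chosen with earlier results of these data known. Chromosome X and contacts between chromosomes were not analysed here. A further result among the other Polycomb target genes is not reported here.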

Additional observations from a re-analysis of the deposited data

How the results depend on the processing

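Depth limits the single pairs: beyond 2 Mb the median pair held 2 contacts over the 6 libraries. With every bin of 20 or more contacts kept, no listed bin passed for insulation (3 rose and 10 fell before) or for contacts within 1 Mb (1 rose before). Of the called bins, the falls at En2 (4.21), Pax8 (2.83), Lhx3 (1.20), Barhl1 (1.16) and Six6 (0.048) then turned to positive differences. The rises at Nkx6-1 (-0.0067), Tbx5 (-0.039) and Lhx5 (-0.068) turned to negative ones. The difference of the summed far contacts went from 0.041 to 1.09. The cause was not tested. Without WT replicates 1 and 2, 12 bins rose in contacts within 1 Mb and the far difference was 0.505. As a median over far pairs with an expected count of 5 or more it was -0.534. With a 250 kb square 6 bins rose and 6 fell in insulation, against 23.2% and 20.6% of all bins. With a 1 Mb square 2 of 27 bins rose and 12 fell (36.1% and 33.5% of all bins). The 2 were Dlx3 and Six6, so none of the 3 rises remained, and Lhx5 turned to -0.019. On unbalanced contacts 3 rose and 12 fell (31.4% and 27.9% of all bins). Centred on the library median, 3 rose and 13 fell (28.8% and 35.2%). For contacts within 1 Mb, no bin rose when contacts inside the bin were counted or with a limit of 500 kb (0.0649% and 0.18% of all bins rose). Without the bin's own contacts as offset 2 rose, with TMM factors (4.52% of all bins) and with DESeq2 (1.4%), and 2 fell with TMM factors (3.63%). Leaving out 1 library at a time gave 3 to 6 rises and 9 to 10 falls in insulation, 0 to 2 rises within 1 Mb and a far difference of -0.191 to 0.325. Over all bins these fits gave 29% to 32.4% rises and 26.6% to 30% falls in insulation, and 0.169% to 9.43% rises within 1 Mb. No alternative gave a call for a single pair of listed genes. For the insulation score, deviations of same-numbered libraries had correlations of -0.035, -0.013 and -0.068, which gave no sign of pairing. Differently numbered libraries were not set beside them, and pairing was not checked for the other measures. With the replicate number as a block, 4 bins rose and 10 fell in insulation (32% and 29.9% of all bins), and 0 rose in contacts within 1 Mb (0.461%).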
